A study of Homo sapiens with 4 samples.

Results

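The genes described here are 57 splicing factor genes of 18806 genes in the expression table, chosen by symbol. They comprise 12 SRSF genes, 24 HNRNP genes, 3 SF3A genes, 6 SF3B genes and 12 SNRP genes. The rule used symbols and no measured value, but earlier results of these data were known when it was made. Expression was measured by RNA-seq in Huh7, a human hepatocellular carcinoma line. All cells came from 1 Huh7 clone that stably expressed Cas9, received a guide RNA by lentivirus and were selected with hygromycin B. The control group carried the guide sgNS (2 libraries, labelled wild type). The METTL16 KO group was labelled sgMETTL16 (2 libraries, described as KO in the design and as a METTL16 knockdown in the genotype label). The paper calls the replicates of its RNA sequencing biological. Whether libraries of a group came from separate infections is not stated, nor whether the METTL16 KO libraries carried the same guide. The p-values therefore measure only the spread between these libraries, and how much of it is technical is unknown. Values are TPM, a transcript's share of each library, which adjusts for transcript length and library size and can be compared between genes.

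An intron is removed by the spliceosome, which is built from small nuclear ribonucleoproteins (snRNPs) and many further proteins. SNRP genes encode the Sm ring that surrounds most spliceosomal snRNAs and proteins particular to the U1 or U2 snRNP. SF3A and SF3B genes encode the complexes that hold the U2 snRNP at the branch point. SRSF genes encode SR proteins, which bind exons and mostly promote their inclusion, while hnRNP proteins coat the pre-mRNA and often act in the opposite sense. METTL16 is an RNA methyltransferase that modifies an adenosine of U6 snRNA, in the box that pairs with the 5′ splice site, and hairpins of the MAT2A mRNA.

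The sequence below is shown because it is where the targeted enzyme meets the splicing machinery. It is a stretch of U6 snRNA (RNU6-1, chr15:67839939-67840045, minus strand, GRCh38), with the adenosine methylated by METTL16 in capitals.

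RNU6-1: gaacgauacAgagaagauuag

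This adenosine faces position 4 of the intron. The 5′ splice sites of the most raised and of the most lowered SNRP or SRSF gene follow, read from GRCh38 with GENCODE release 44 as 3 exonic and 8 intronic bases, with intron position 4 in capitals. The first 3 belong to SNRPB2, starting at chr20:16730162-16730172 for the first intron, and the last 3 to SRSF6, starting at chr20:43458138-43458148, both on the plus strand.

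SNRPB2 intron 1: ggggtgGgtac
SNRPB2 intron 2: aaggtaAgtgc
SNRPB2 intron 3: atggtaAgcca
SRSF6 intron 1: tgggtgAgtcg
SRSF6 intron 2: gcagtgAgtcc
SRSF6 intron 3: aaggtaTgttt

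An A stood at position 4 in 5 of 6 SNRPB2 introns and in 4 of 5 SRSF6 introns. By subfamily, A was found at this position in 61.8% of 55 SRSF introns, 65.5% of 177 HNRNP introns, 61.5% of 39 SF3A introns, 71.8% of 78 SF3B introns and 81.2% of 48 SNRP introns, beside 69.8% of 119618 introns in all genes tested. Only introns that begin with GT in a single annotated transcript per gene were counted. These shares describe the genes' own introns, whose splicing cannot be read from a table of gene levels.

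The targeted gene was checked first. METTL16 (chr17:2405562-2511891, minus strand) stood at 26.29 and 25.14 TPM in the sgNS libraries, against 17.62 and 18.75 TPM in the METTL16 KO libraries. The groups did not overlap, and METTL16 fell by 0.50 on the log2 scale (SE 0.062, adjusted p = 2.4e-05). This and every later fold change is METTL16 KO against sgNS on the log2(TPM + 0.1) scale, tested by limma over 11971 genes with a mean of 1 TPM or more and adjusted by the Benjamini-Hochberg method, with calls at an adjusted p under 0.05. The transcript level does not measure editing, and protein was not measured here.

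Between 11723 and 12074 genes reached 1 TPM in a library. Libraries of a group correlated at r of 0.9966 and 0.9972 across genes, and libraries of different groups at 0.9435 to 0.9449. All 9 hepatocyte and hepatoma markers were detected, and their summed level was 18050 to 18140 TPM in sgNS and 30900 to 31370 TPM in METTL16 KO. Summed markers of other liver cell types stood at 8.87 to 9.53 TPM and 13.52 to 14.54 TPM, with KRT7 at 0.05 TPM or less in each library. The hepatocyte markers did not all rise. Of the 9, 7 were called higher, with AFP the most raised (log2 fold change 2.54), and APOB and TF were called lower (-0.17 and -0.43). Only 2 markers of other cell types were expressed enough to be tested, CD68, called higher (1.49), and PECAM1, called lower (-0.75). The part of the rise in summed hepatocyte transcripts in the splicing factor values was not tested. Because TPM is a share of each library, a level here is relative to all other transcripts, and in bulk RNA fewer cells of a kind and less RNA per cell cannot be told apart. Among all genes tested, 50.1% were called higher and 25.6% lower, and the median log2 fold change was 0.16.

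Of the 57 genes, 52 were expressed enough to be tested. Of these, 23 were called lower and 12 higher in METTL16 KO, where the background is 25.6% lower and 50.1% higher. That is 35 genes called in either direction, beside 75.7% of all genes. The median of the 52 genes was -0.05, and 45 of them lay below the median of all genes. The changes were small. Only SNRPB2 passed the test with a change of at least 1.5-fold, against 29.1% of all genes (19.5% higher and 9.59% lower). None passed at an unadjusted p under 0.01 with a change of at least 2-fold, against 11.4% (7.69% higher and 3.75% lower). The groups did not overlap for 44 of the 52 genes, or 84.6%, beside 87.4% of all genes.

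The calls were counted by subfamily, and differences between subfamilies were not tested. The SRSF genes had 8 calls lower (66.7%) and 0 higher among 12 tested, and the HNRNP genes 11 lower (55.0%) and 3 higher among 20, beside 25.6% lower in all genes. The SNRP genes had 2 lower and 6 higher among 11, and their 54.5% higher lies near the 50.1% of all genes. After median-ratio scaling of the libraries, the SNRP genes had 4 calls lower and 1 higher. As deposited, SF3B had 1 lower and 2 higher among 6, and SF3A had 1 in each direction among 3. The medians were -0.13 for SRSF, -0.12 for HNRNP, -0.03 for SF3A, -0.01 for SF3B and 0.09 for SNRP, all below the 0.16 of all genes.

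**Figure D1:**
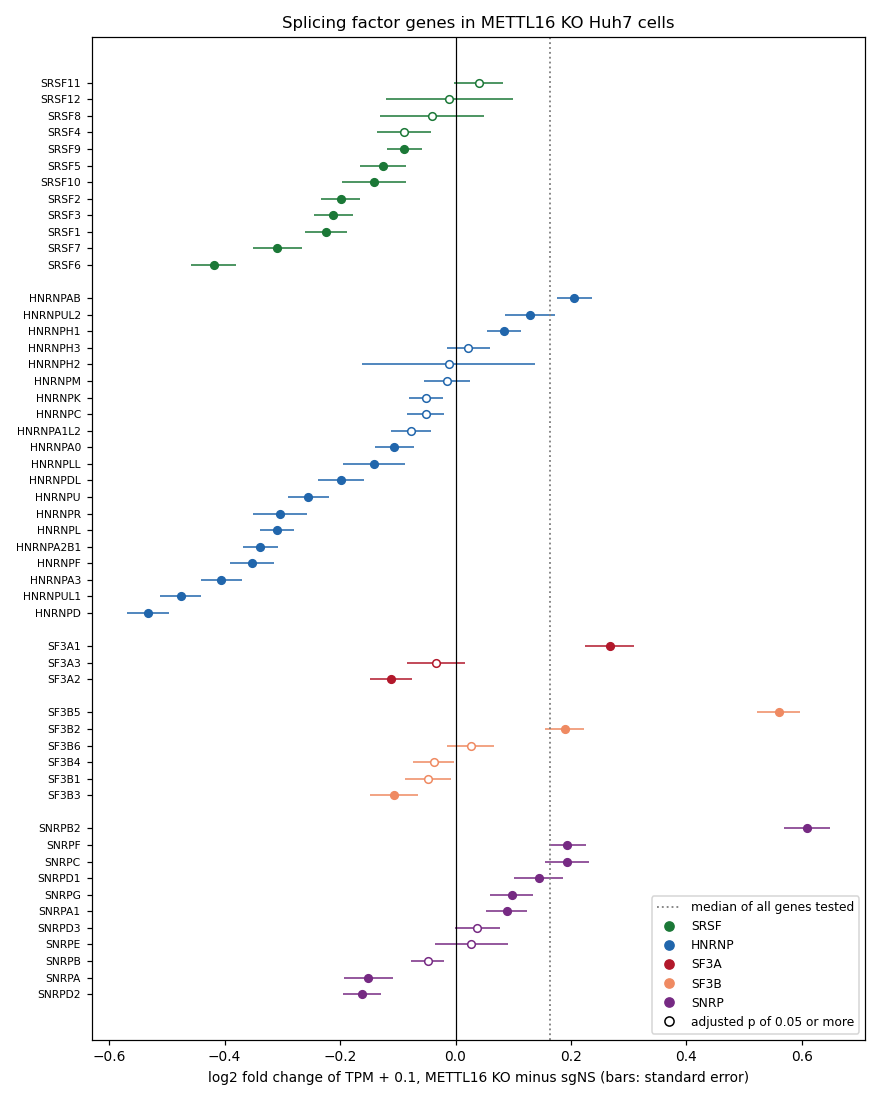
Log2 fold change (METTL16 KO minus sgNS, TPM + 0.1) of the 52 tested genes, by subfamily, with bars for the standard error. Filled points have an adjusted p under 0.05, the solid line marks 0 and the dotted line the median of all genes, 0.16. Of the SRSF genes, 11 of 12 lie left of 0, and 8 of 11 SNRP genes lie right of it. Of all 11971 genes tested, 4375 lie below 0 and 7596 above it. Left of the dotted line lie all 12 SRSF genes and 8 of 11 SNRP genes.

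Since more genes rose than fell, the same comparison was made after scaling each library to the median ratio of its genes, which brought the median of all genes to -0.002, and after quantile normalization, which brought it to 0.01. After these scalings 36.5% and 35.5% of all genes were called lower and 36.4% and 36.9% higher. All 23 splicing factor genes called lower were also called lower under both. Of the 12 called higher, 3 were called higher under both, namely SF3A1, SF3B5 and SNRPB2. HNRNPH1, HNRNPUL2, SNRPA1, SNRPD1 and SNRPG turned below 0 after median-ratio scaling. The SNRP median was -0.08 after median-ratio scaling and 0.01 after quantile normalization, and the SRSF medians were -0.30 and -0.25.

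The ratio between subfamilies within a library is unchanged by median-ratio scaling, which multiplies all its genes by 1 factor. Summed SRSF and HNRNP levels over summed SF3A, SF3B and SNRP levels were 1.55 and 1.54 in sgNS and 1.32 and 1.31 in METTL16 KO. The ratio was lower in both METTL16 KO libraries, and the exact permutation test cannot go below p = 0.33 with these 4 libraries. Its direction follows from the deposited sums, whose means were lower in METTL16 KO for SRSF and HNRNP and higher for SF3A, SF3B and SNRP. The ratio is therefore no separate evidence.

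SR proteins take part in nearly every step of exon recognition. Summed over 12 genes, SRSF transcripts were 1612.9 ± 5.69 TPM in sgNS and 1427.1 ± 6.99 TPM in METTL16 KO (SD, n = 2), a difference of -11.5% (exact permutation test, two-sided, p = 0.33, the smallest possible).

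SRSF6, an SR protein that regulates exon inclusion, showed the largest fall of the SRSF genes. Its level was 143.14 and 150.33 TPM in sgNS and 109.57 and 109.87 TPM in METTL16 KO. The METTL16 KO libraries lay well below both controls, and the fall was 0.42 on the log2 scale (SE 0.039, adjusted p = 2.7e-06). SRSF7, which also acts in the export of mRNA, was at 96.07 and 100.72 TPM in the sgNS libraries, against 80.4 and 78.43 TPM in the METTL16 KO libraries. Here too the groups stood apart, and SRSF7 fell by 0.31 on the log2 scale (SE 0.042, adjusted p = 5.5e-05).

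SRSF1, the founding member of the family, went from 146.16 and 149.27 TPM to 125.36 and 127.55 TPM. It fell by 0.22 (log2 scale, SE 0.036, adjusted p = 0.0002). SRSF3, the smallest SR protein, went from 253.73 and 262.01 TPM to 220.41 and 224.67 TPM, and fell by 0.21 (log2 scale, SE 0.034, adjusted p = 0.00017). SRSF2, a nuclear SR protein that recurs as a mutated gene in myeloid neoplasms, was at 253.07 and 245.57 TPM and then 217.87 and 216.48 TPM, and fell by 0.20 (log2 scale, adjusted p = 0.00025).

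The most abundant SRSF gene was SRSF9, at 383.54 and 376.09 TPM in sgNS and 358.19 and 356.04 TPM in METTL16 KO, and it changed little, by -0.09 (log2 scale, adjusted p = 0.02). SRSF5 and SRSF10 had log2 fold changes of -0.12 and -0.14 (adjusted p = 0.015 and 0.037). Of the 8 calls, those of SRSF1, SRSF2, SRSF3, SRSF6 and SRSF7 were kept when any single library was left out. The calls of SRSF9 and SRSF10 were lost without METTL16 KO replicate 1 and without METTL16 KO replicate 2 (adjusted p = 0.1 and 0.13 for SRSF9, and 0.12 and 0.19 for SRSF10). SRSF10 was lost also without sgNS replicate 2 (adjusted p = 0.17), and SRSF5 without sgNS replicate 1 or METTL16 KO replicate 1 (adjusted p = 0.062 and 0.18).

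The 4 SRSF genes that did not pass the test differed in level. SRSF4 was at 54.31 and 55.53 TPM in sgNS and 50.62 and 52.67 TPM in METTL16 KO (log2 fold change -0.09, adjusted p = 0.1), which do not overlap. SRSF11 was at 66.9 and 69.26 TPM against 69.61 and 70.35 TPM (0.04, adjusted p = 0.41), which do not overlap either. SRSF8, a gene with 1 exon, was at 7.2 and 7.22 TPM against 7.27 and 6.75 TPM (adjusted p = 0.69), and SRSF12 at 4.54 and 4.77 TPM against 4.81 and 4.43 TPM (adjusted p = 0.93), with overlapping groups.

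**Figure D2:**
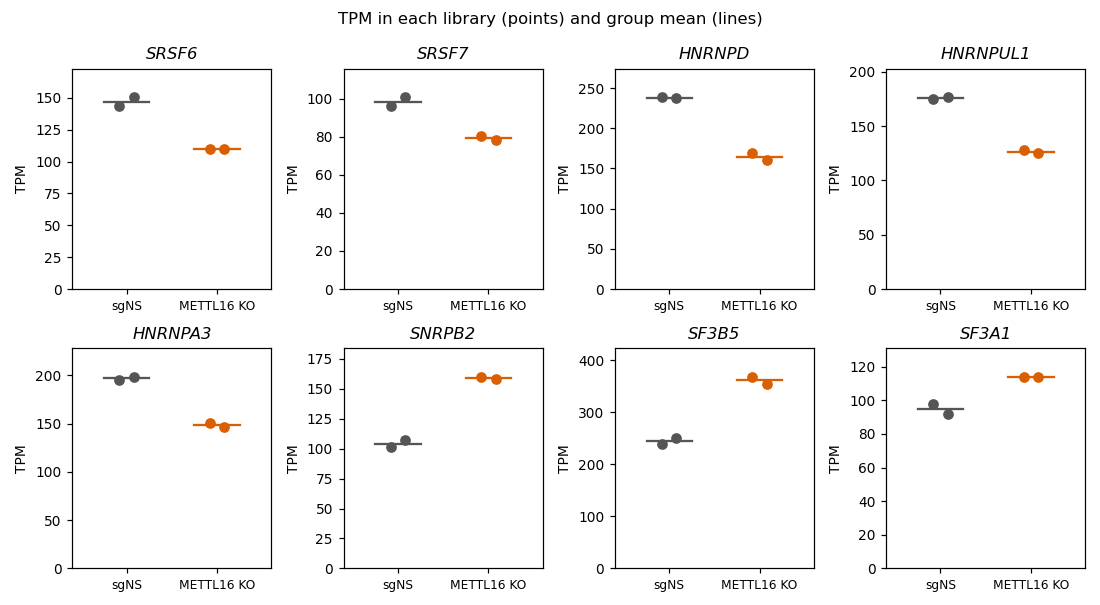
TPM of 8 genes in each library (points; axes start at 0), with lines for the group means. SRSF6, SRSF7, HNRNPD, HNRNPUL1 and HNRNPA3 lie lower in both METTL16 KO libraries than in both sgNS libraries, and SNRPB2, SF3B5 and SF3A1 lie higher.

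SR genes are known for exons whose inclusion sends the transcript to nonsense-mediated decay (NMD), and the gene-level TPM pools productive and decay-bound transcripts. GENCODE lists at least 1 NMD transcript for 12 of 12 SRSF genes, 13 of 20 tested HNRNP genes (65.0%), 1 of 3 SF3A genes, 2 of 6 SF3B genes and 3 of 11 tested SNRP genes (27.3%), beside 47.3% of all genes tested. Their part in the levels was not tested.

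hnRNP proteins are among the most abundant RNA-binding proteins of the nucleus. Summed over 24 genes, HNRNP transcripts were 4526.5 ± 22.0 TPM in sgNS and 4072.0 ± 55.1 TPM in METTL16 KO (SD, n = 2), a difference of -10.0% (exact permutation test, two-sided, p = 0.33).

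HNRNPD, also called AUF1, binds AU-rich elements and affects mRNA stability. It was at 238.42 and 237.94 TPM in the sgNS libraries, against 168.82 and 160.45 TPM in the METTL16 KO libraries, and so showed the largest fall of all 52 genes, by 0.53 on the log2 scale (SE 0.037, adjusted p = 2.5e-07). Its paralog HNRNPDL went from 93.44 and 96.08 TPM to 83.16 and 82.03 TPM and fell by 0.20 (log2 scale, adjusted p = 0.00097). The ratio of HNRNPD to HNRNPDL was 2.55 and 2.48 in sgNS and 2.03 and 1.96 in METTL16 KO, so the paralogs fell by unequal amounts.

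HNRNPUL1, a relative of HNRNPU, was at 175.03 and 176.4 TPM in sgNS and 127.77 and 124.88 TPM in METTL16 KO, and fell by 0.48 on the log2 scale (SE 0.036, adjusted p = 4.8e-07). Its paralog HNRNPUL2 was at 94.47 and 88.94 TPM and then 100.15 and 100.29 TPM, with a log2 fold change of 0.13 (SE 0.043, adjusted p = 0.018). The ratio of the first to the second was 1.85 and 1.98 in sgNS and 1.28 and 1.25 in METTL16 KO. HNRNPU itself, a nuclear matrix protein that binds RNA and chromatin, went from 223.06 and 223.13 TPM to 190.62 and 183.44 TPM and fell by 0.26 (log2 scale, adjusted p = 5.4e-05).

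The A and B type proteins are core components of hnRNP particles. HNRNPA2B1, the most abundant HNRNP gene by its mean over the 4 libraries, was at 561.84 and 560.12 TPM in the sgNS libraries, against 450.73 and 436.87 TPM in the METTL16 KO libraries, and fell by 0.34 (log2 scale, SE 0.030, adjusted p = 1.7e-06). HNRNPA3 was at 195.03 and 198.6 TPM and then 150.47 and 146.48 TPM, and fell by 0.41 (log2 scale, SE 0.036, adjusted p = 1.5e-06). HNRNPA0, which has a single exon, changed by -0.11 (log2 scale, adjusted p = 0.015). HNRNPAB moved the other way, from 301.95 and 307.04 TPM to 351.72 and 350.69 TPM, with a log2 fold change of 0.21 (SE 0.031, adjusted p = 0.0001), which was 0.04 (adjusted p = 0.27) after median-ratio scaling.

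HNRNPF, which binds G-rich tracts, was at 188.67 and 188.97 TPM in sgNS and 151.86 and 144.1 TPM in METTL16 KO, and fell by 0.35 (log2 scale, SE 0.038, adjusted p = 8.1e-06). Its close relative HNRNPH1 was at 422.15 and 432.43 TPM against 453.87 and 452.06 TPM, a log2 fold change of 0.08 (SE 0.030, adjusted p = 0.024). HNRNPL, which binds CA repeats, fell by 0.31 (log2 scale, adjusted p = 2.8e-06), from 480.95 and 482.75 TPM to 391.51 and 385.82 TPM. HNRNPR fell by 0.30 and HNRNPLL changed by -0.14 on the log2 scale (adjusted p = 0.00012 and 0.032).

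Of the 11 HNRNP calls lower, 9 were kept when any single library was left out. HNRNPA0 was lost without METTL16 KO replicate 1 or 2 (adjusted p = 0.085 and 0.11), and HNRNPLL without sgNS replicate 2, METTL16 KO replicate 1 or METTL16 KO replicate 2 (adjusted p = 0.084, 0.09 and 0.18). Of the 3 calls higher, that of HNRNPAB was kept. HNRNPH1 was lost without sgNS replicate 1, METTL16 KO replicate 1 or METTL16 KO replicate 2 (adjusted p = 0.065, 0.14 and 0.12), and HNRNPUL2 without sgNS replicate 2, METTL16 KO replicate 1 or METTL16 KO replicate 2 (adjusted p = 0.074, 0.11 and 0.11).

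HNRNPK, the second by the mean over the 4 libraries, which binds C-rich tracts, did not pass the test, with 462.54 and 470.63 TPM in sgNS and 454.97 and 445.72 TPM in METTL16 KO (log2 fold change -0.05, adjusted p = 0.14). HNRNPC, which binds uridine tracts, was at 338.45 and 351.63 TPM against 333.6 and 331.96 TPM (adjusted p = 0.17). Neither gene overlapped between groups. HNRNPA1L2, a single-exon gene nearly identical to another family gene that was not analysed here, so that its reads cannot be assigned with certainty and its level may include reads of that gene, was at 190.19 and 184.69 TPM against 177.22 and 178.25 TPM (adjusted p = 0.066). HNRNPH3 was at 117.37 and 116.35 TPM against 119.76 and 117.51 TPM (adjusted p = 0.61), and these do not overlap.

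HNRNPM was at 153.79 and 146.43 TPM against 150.81 and 146.23 TPM (adjusted p = 0.74), and HNRNPH2 at 11.84 and 16.02 TPM against 15.92 and 11.71 TPM (adjusted p = 0.94). Both overlapped between groups, and HNRNPH2 had the largest standard error of log2 fold change (0.15) of the tested HNRNP genes. HNRNPCL1 was at 0.06 and 0.07 TPM in sgNS and 0.07 and 0.16 TPM in METTL16 KO, below the level tested, and HNRNPCL2, HNRNPCL3 and HNRNPCL4 were listed at 0 in all 4 libraries.

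The SF3A complex has 3 subunits, all measured. SF3A1, which also contacts U1 snRNA, was at 97.55 and 92.0 TPM in the sgNS libraries, against 113.94 and 114.06 TPM in the METTL16 KO libraries, and rose by 0.27 on the log2 scale (SE 0.042, adjusted p = 0.00015). SF3A2 was at 164.42 and 158.97 TPM against 149.44 and 149.77 TPM, with a log2 fold change of -0.11 (SE 0.036, adjusted p = 0.016). Its call was lost without METTL16 KO replicate 1 or 2 (adjusted p = 0.1 and 0.097). SF3A3 was at 80.84 and 83.22 TPM against 83.98 and 76.52 TPM, which overlap (adjusted p = 0.56).

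So the subunits of 1 complex did not move together at the transcript level. Their sum was 338.5 ± 6.10 TPM in sgNS and 343.86 ± 4.96 TPM in METTL16 KO (SD, n = 2; exact permutation test, p = 0.67).

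SF3B holds the branch point adenosine, and its largest subunit SF3B1 is the target of several splicing inhibitors. SF3B1 was at 116.73 and 116.91 TPM in sgNS and 115.91 and 110.13 TPM in METTL16 KO, which do not overlap and did not pass the test (adjusted p = 0.29). SF3B5, a very small subunit encoded by 1 exon (chr6:144094884-144095573, minus strand), was the most raised SF3 gene. It was at 238.63 and 251.78 TPM and then 368.7 and 354.46 TPM, and rose by 0.56 on the log2 scale (SE 0.037, adjusted p = 1.8e-07). The ratio of SF3B5 to SF3B1 was 2.04 and 2.15 in sgNS and 3.18 and 3.22 in METTL16 KO.

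SF3B2 went from 197.71 and 193.94 TPM to 222.1 and 224.52 TPM, and rose by 0.19 (log2 scale, SE 0.033, adjusted p = 0.00036), but by 0.02 (adjusted p = 0.53) after median-ratio scaling. SF3B3 was at 69.63 and 69.69 TPM against 64.34 and 65.0 TPM (log2 fold change -0.11, SE 0.042, adjusted p = 0.037). This call was lost without METTL16 KO replicate 1 or 2 (adjusted p = 0.17 and 0.13), without sgNS replicate 2 (adjusted p = 0.05) and with the replicate number as a block (adjusted p = 0.059). SF3B4, which binds the pre-mRNA upstream of the branch point, was at 139.67 and 140.05 TPM against 137.74 and 134.77 TPM (adjusted p = 0.36), without overlap.

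SF3B6, the subunit that touches the branch point adenosine, was at 268.47 and 283.58 TPM against 272.42 and 289.64 TPM, which overlap (adjusted p = 0.58). The summed SF3B level was 1043.4 ± 17.8 TPM in sgNS and 1179.9 ± 1.90 TPM in METTL16 KO (SD, n = 2), a difference of 13.1% (exact permutation test, p = 0.33), and SF3B5 made the largest part of it. After median-ratio scaling the difference was 0.809% (exact permutation test, p = 1.0) and after quantile normalization 7.54%.

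**Figure D3:**
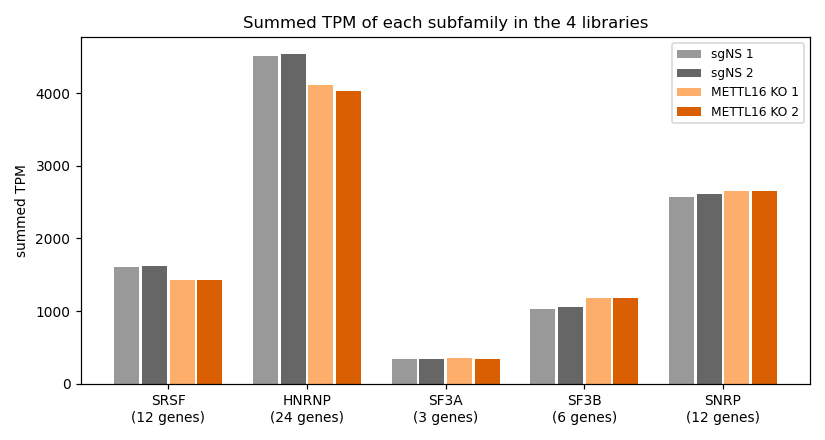
Summed TPM of each subfamily in the 4 libraries (bars, axis from 0). Both METTL16 KO bars lie below both sgNS bars for SRSF and HNRNP and above them for SF3B and SNRP, while the SF3A bars overlap.

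Among the proteins particular to 1 snRNP, SNRPB2 (U2 B″) showed the largest rise of all 52 genes. It lies at chr20:16729961-16742564 on the plus strand. It was at 101.44 and 106.9 TPM in the sgNS libraries, against 159.92 and 157.75 TPM in the METTL16 KO libraries, and rose by 0.61 on the log2 scale (SE 0.040, adjusted p = 1.6e-07). Its partner in the U2 snRNP, SNRPA1 (U2 A′), was at 168.81 and 166.4 TPM against 175.7 and 180.91 TPM, a log2 fold change of 0.09 (adjusted p = 0.04). The ratio of SNRPB2 to SNRPA1 was 0.601 and 0.642 in sgNS and 0.910 and 0.872 in METTL16 KO.

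SNRPA, the U1 snRNP protein related to SNRPB2 in sequence, was at 119.46 and 124.07 TPM in sgNS and 112.64 and 106.71 TPM in METTL16 KO, with a log2 fold change of -0.15 (SE 0.042, adjusted p = 0.0071). SNRPB2 stood below SNRPA in both sgNS libraries and above it in both METTL16 KO libraries. The ratio of SNRPB2 to SNRPA was 0.849 and 0.862 in sgNS and 1.42 and 1.48 in METTL16 KO. SNRPC, which helps U1 hold the 5′ splice site, went from 174.56 and 184.04 TPM to 203.25 and 206.69 TPM and rose by 0.19 (log2 scale, SE 0.037, adjusted p = 0.0007).

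The Sm ring has the products of SNRPB, SNRPD1, SNRPD2, SNRPD3, SNRPE, SNRPF and SNRPG. SNRPB was the most abundant SNRP gene, at 841.15 and 822.67 TPM in sgNS and 815.07 and 793.93 TPM in METTL16 KO, which do not overlap (log2 fold change -0.05, adjusted p = 0.14). SNRPD2, the second, went from 505.49 and 516.74 TPM to 446.94 and 467.1 TPM and fell by 0.16 (log2 scale, SE 0.032, adjusted p = 0.00087). SNRPF went from 265.78 and 273.79 TPM to 307.77 and 309.21 TPM and rose by 0.19 (log2 scale, SE 0.032, adjusted p = 0.00024). SNRPD1, which pairs with SNRPD2 in the ring, was at 70.28 and 68.02 TPM against 77.47 and 75.32 TPM (log2 fold change 0.14, SE 0.043, adjusted p = 0.01). SNRPG had a log2 fold change of 0.10 (adjusted p = 0.035).

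SNRPE, at 80.95 and 93.42 TPM against 91.66 and 85.7 TPM, and SNRPD3, at 103.12 and 106.45 TPM against 108.76 and 106.41 TPM, overlapped between groups and did not pass the test (adjusted p = 0.71 and 0.4). SNRPC and SNRPF, called higher here, had log2 fold changes of 0.03 and 0.03 after median-ratio scaling (adjusted p = 0.54 and 0.47). The call of SNRPA was lost without METTL16 KO replicate 2 (adjusted p = 0.12) and that of SNRPD1 without METTL16 KO replicate 1 (adjusted p = 0.11). SNRPA1 lost its call without sgNS replicate 2, METTL16 KO replicate 1 or METTL16 KO replicate 2 (adjusted p = 0.078, 0.089 and 0.26), and with the replicate number as a block (adjusted p = 0.053). SNRPG lost its call without sgNS replicate 1, METTL16 KO replicate 1 or METTL16 KO replicate 2 (adjusted p = 0.071, 0.063 and 0.28).

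SNRPN was listed at 0 in all libraries. SNURF, which shares its locus, was at 0.29 and 0.05 TPM in sgNS and 0.9 and 0.53 TPM in METTL16 KO, below the level tested. The summed SNRP level was 2592.1 ± 23.4 TPM in sgNS and 2649.9 ± 2.16 TPM in METTL16 KO (SD, n = 2), a difference of 2.23% (exact permutation test, p = 0.33). This direction turned after both scalings.

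**Figure D4:**
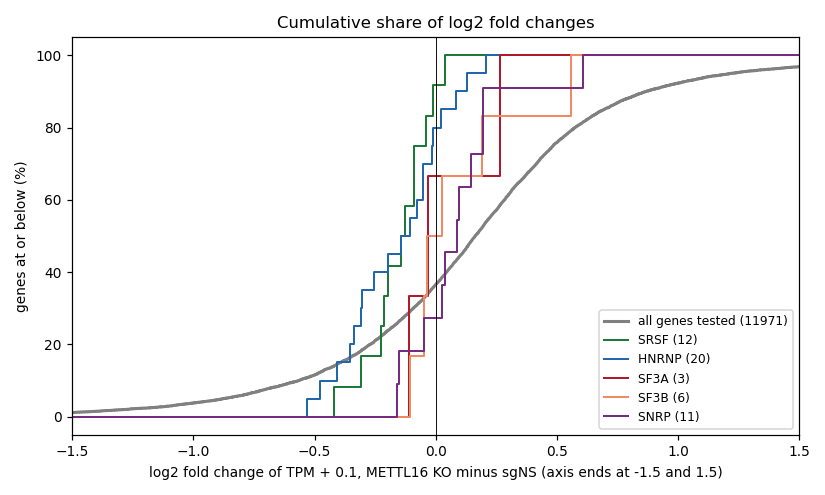
Cumulative share of genes at or below each log2 fold change for the 5 subfamilies and all 11971 genes tested (grey; the axis leaves out the outermost genes). The SRSF and HNRNP lines rise left of 0, the grey line has its median at 0.16, and the splicing factor lines are steeper than the grey line.

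The promoters of these genes also differed in sequence. RefSeq promoter windows (GRCh38.p14, 250 bases before to 50 after each start) were found for 49 of the 52 tested genes and searched on both strands for 5 motifs picked after the expression values were seen. CCAAT occurred in 17 of 20 HNRNP genes (85.0%), 2 of 11 SRSF genes, 4 of 10 SNRP genes, 1 of 5 SF3B genes and 0 of 3 SF3A genes, beside 43.7% of all genes tested and 34.6% of all windows. CCGGAAG, a motif of ETS factors, occurred in 7 of 10 SNRP genes (70.0%), 3 of 3 SF3A genes, 3 of 5 SF3B genes, 3 of 20 HNRNP genes (15.0%) and 2 of 11 SRSF genes. The shares were 22.6% of all genes tested and 12.2% of all genes with a window.

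The E-box CACGTG occurred in 7 of 20 HNRNP genes, 1 of 5 SF3B genes and no SRSF, SF3A or SNRP gene. The shares were 12.7% of all genes tested and 8.77% of all genes with a window. TATAAA occurred in 7 of the 49 genes, beside 8.41% of all genes tested and 14.0% of all genes with a window. The palindrome bound by NRF1, searched as its 1 perfect form, occurred in 0 of the 49, beside 2.71% of all genes tested and 1.52% of all genes with a window. No motif contains another, a gene with several starts had several windows, and a match says only that the letters are there.

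The stretches below are examples picked for carrying a motif. They show the CCAAT letters, or ATTGG on the other strand, in 3 HNRNP genes that fell. The CCGGAAG letters, or CTTCCGG, are shown in SNRPB2 and SF3A1, 2 of the 3 genes called higher under all 3 scalings. The third, SF3B5, has no CCGGAAG. Capitals mark the motif, and the HNRNPUL1 stretch belongs to the window of an alternative start. They lie at chr19:41264254-41264283 (plus strand), chr2:177212665-177212694 (plus), chr7:26200829-26200858 (minus), chr20:16729993-16730022 (plus) and chr22:30356925-30356954 (minus).

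HNRNPUL1: acggcgctctgATTGGctaggtttccgggc
HNRNPA3: ccgcccccttcCCAATtcgctcctccccca
HNRNPA2B1: gccttcccgccATTGGcggcggatagggcg
SNRPB2: tggctacgttgCTTCCGGtgcctggctccg
SF3A1: aggggacggtcCCGGAAGtgcgccagtcgt

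Within a subfamily, motif and direction did not always go together. HNRNPD, the most lowered gene, has no CCAAT in the 250 bases before its starts, whereas HNRNPAB, the most raised HNRNP gene, has 2 there. SF3B5, the most raised SF3 gene, has no CCGGAAG, and SNRPD2, the most lowered SNRP gene, has 1 before its start.

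Other genes of the spliceosome, of splicing regulation and of snRNP assembly were counted together from lists written by hand. Of 154 listed genes, 146 were in the table and 139 were tested, of which 92 were called higher and 19 lower, and their median was 0.22 on the log2 scale, beside 50.1% and 25.6% of all genes and a median of 0.16. After median-ratio scaling 58 were called higher and 39 lower.

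The U1 list had 3 genes higher and 4 lower among 8, as it had after median-ratio scaling, and it held both extremes. PRPF39, a U1 cofactor, was at 19.69 and 21.53 TPM in sgNS and 70.33 and 65.43 TPM in METTL16 KO, and rose by 1.72 on the log2 scale (SE 0.060, adjusted p = 1.4e-09). LUC7L2, a U1-associated protein, was at 17.35 and 32.03 TPM against 2.94 and 6.92 TPM, and fell by 2.36 (log2 scale, SE 0.33, adjusted p = 6.8e-05), with an uneven level within each group.

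For recognition of the 3′ splice site by U2, 8 of 13 genes were called higher and 0 lower (6 and 4 after median-ratio scaling), and U2AF2, which binds the polypyrimidine tract, went from 110.31 and 104.8 TPM to 168.4 and 162.39 TPM, rising by 0.62 (log2 scale, adjusted p = 1.7e-07). For the tri-snRNP, 9 of 15 were higher and 2 lower (5 and 6 after median-ratio scaling), with PPIH, a cyclophilin of the U4/U6 particle, at 0.87 and SNRNP40, a U5 protein, at -0.26 on the log2 scale (adjusted p = 1.6e-07 and 0.0001). The LSM ring, which binds U6 snRNA, had 5 of 6 higher and 0 lower (2 and 0 after median-ratio scaling), with LSM7 at 0.43 (log2 scale, adjusted p = 1.9e-06). Of the PRP19 complex and catalytic proteins, 21 of 24 were higher and 2 lower (14 and 2 after median-ratio scaling), with CWC25, needed at the first catalytic step, at 1.14 and CTNNBL1, a PRP19-associated protein, at -0.79 (log2 scale, adjusted p = 8.5e-08 and 1.2e-07).

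**Figure D5:**
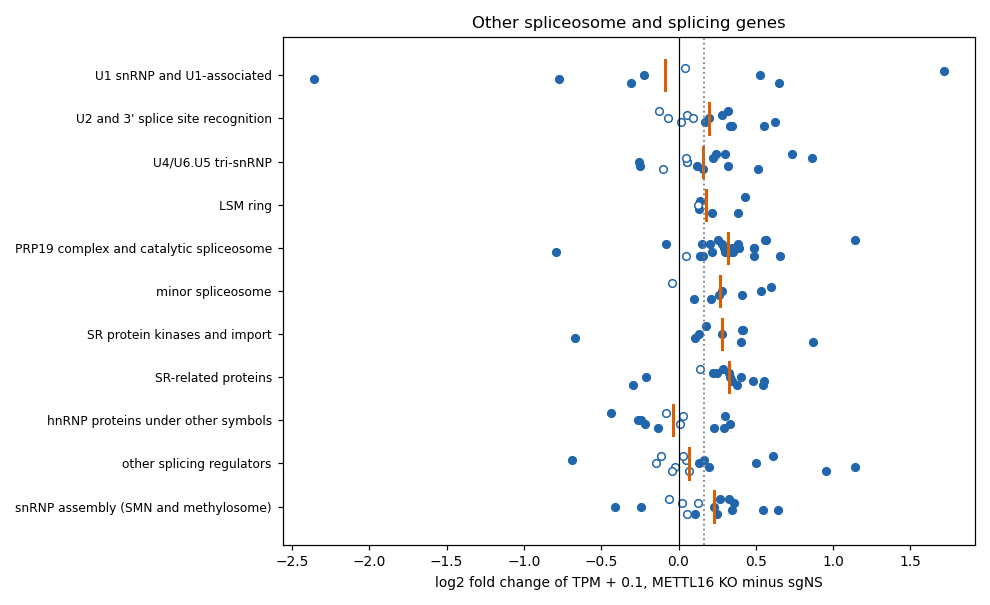
Log2 fold change (METTL16 KO minus sgNS, TPM + 0.1) of 139 other spliceosome and splicing genes by list. Points are genes, filled with an adjusted p under 0.05, short bars are list medians, and the dotted line is the median of all genes, 0.16. PRPF39 at 1.72 and LUC7L2 at -2.36, both of the U1 list, are the extremes.

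The hnRNP proteins that carry other symbols had 5 of 12 called lower and 4 higher, with a median of -0.03, and 8 lower and 2 higher after median-ratio scaling. RBMX (hnRNP G) went from 72.79 and 71.1 TPM to 52.71 and 53.5 TPM and fell by 0.44 (log2 scale, SE 0.043, adjusted p = 4.2e-06). PTBP2, the neuronal relative of PTBP1, was at 7.79 and 7.89 TPM against 9.36 and 10.46 TPM (log2 fold change 0.33, adjusted p = 0.0047), and was not called after median-ratio scaling (adjusted p = 0.1).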

How the data were processed

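Gene expression was measured in 4 Huh7 libraries. Per the labels, RNA was prepared with a stranded mRNA kit, although the sample description names Ribozero RNA. The authors used Cutadapt for trimming, STAR for mapping to GRCh38 and RSEM for quantification, with versions and annotation not given in the sources used here. The methods call the unit RPKM, but the deposited values sum to 1000000 per library (within rounding) and were treated as TPM. TPM keeps no counts, so depth is unknown and no count test was run. RSEM divides reads shared by near-identical genes by estimation.

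From the deposited TPM, log2(TPM + 0.1) was tested by limma 3.58.1 (lmFit, eBayes with trend) in R 4.3.3 without a block, over 11971 genes whose mean was 1 TPM or more, with Benjamini-Hochberg adjustment. Sums were compared by exact permutation. The members and lists were chosen with earlier results of these data known. Named were METTL16, every splicing factor gene, with full statistics for up to 4 rises and 4 falls per subfamily among those called without overlap, and the largest called change in each direction of each other list. Ratios between paralogs and between subfamilies, further statistics and motif examples were added after values were seen. Simulated data for METTL16 KO against sgNS on 11971 genes had 200 changed by 0.5 on the log2 scale. The test recovered 186 of them and called 9 unchanged genes, which is 4.62% of calls. The simulated rises and falls were equally likely, and the spread was taken from these libraries. The share is therefore not the error rate of the real calls. Gene models came from GENCODE release 44 and promoters from RefSeq, both on GRCh38. Alternatives were pseudocounts of 1 and 0.01, all genes above 0, a mean of 5 TPM, median-ratio scaling, quantile normalization, a replicate block, limma without trend, leaving out each library, and the 2 stricter call rules. Python 3.11.15 and matplotlib 3.10.9 were used.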

Additional observations from a re-analysis of the deposited data

How the results depend on the processing

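Median-ratio scaling gave 17 HNRNP, 2 SF3A, 4 SF3B and 4 SNRP genes called lower and 0 HNRNP, 1 SF3B and 1 SNRP gene called higher, with medians of -0.30 (SRSF), -0.29 (HNRNP), -0.20 (SF3A), -0.17 (SF3B) and -0.076 (SNRP). Quantile normalization gave 2 SF3A and 3 SF3B genes lower and 1 HNRNP and 3 SNRP genes higher, with medians of -0.25, -0.25, -0.18, -0.094 and 0.01. The log2 ratio of sums turned for SF3A (0.02 as deposited, -0.14 and -0.085 after the 2 scalings) and SNRP (0.03, then -0.13 and -0.027), and for SF3B it was 0.18, then 0.012 and 0.105. Median-ratio scaling by construction lowers every log2 fold change by a like amount. Single genes turned under median-ratio scaling, namely HNRNPH1 (-0.081), HNRNPUL2 (-0.037), SNRPA1 (-0.076), SNRPD1 (-0.022), SNRPG (-0.069), HNRNPH3 (-0.14), SF3B6 (-0.14), SNRPD3 (-0.13), SNRPE (-0.14) and SRSF11 (-0.13), and under quantile normalization HNRNPH3 (-0.079), HNRNPUL2 (-0.008), SF3B6 (-0.067), SNRPD3 (-0.078), SNRPE (-0.11) and SRSF11 (-0.081).

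Limma without trend called 5 SRSF, 0 SF3A, 0 SF3B and 1 SNRP gene lower and 1 HNRNP gene higher, and the cause was not tested. Of all genes, that fit called 2865 lower and 5716 higher, against 3065 and 5999 with trend. At a change of 1.5-fold or more, 1148 of all genes were called lower and 2330 higher, with 1 SNRP gene higher and 0 other splicing factor genes. At an unadjusted p under 0.01 and 2-fold, 449 and 920 of all genes and 0 splicing factor genes were called.

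Leaving out each library in turn gave 5 to 7 SRSF, 0 to 1 SF3A, 0 to 1 SF3B and 1 to 2 SNRP genes lower, and 1 to 2 HNRNP and 3 to 6 SNRP genes higher. Medians ranged from -0.19 to -0.11 for HNRNP, -0.10 to 0.034 for SF3A, -0.027 to 0.015 for SF3B and 0.068 to 0.11 for SNRP. Genes that did not pass the test changed sign, with ranges of -0.23 to 0.21 for HNRNPH2, -0.05 to 0.02 for HNRNPM, -0.10 to 0.034 for SF3A3, -0.018 to 0.07 for SF3B6, -0.076 to 0.13 for SNRPE, -0.07 to 0.047 for SRSF12 and -0.094 to 0.012 for SRSF8. With 1 library left in a group, that library is assumed to vary like the other group. Of 23 calls lower 15, and of 12 higher 7, were kept in all 4 such fits.

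The replicate numbers gave no sign of pairing (correlation of deviations across genes -0.04). With the replicate number as a block, 8 SRSF and 11 HNRNP genes were called lower and 5 SNRP genes higher. There 0 SF3B genes were called lower, since SF3B3 lost its call (adjusted p = 0.059). Of all genes, 3112 were called lower and 6048 higher under the block. Both pseudocounts and a mean of 5 TPM changed no call of a gene tested there. Testing all genes above 0 lost the calls of SRSF10 and SNRPG (adjusted p = 0.067 and 0.05). Depth is unknown, so genes near 0 TPM were not read.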

Other observations

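Splicing regulators outside the named families moved in both directions. Of the SR protein kinases and import genes, 8 of 9 were called higher and 1 lower, beside 50.1% and 25.6% of all genes. After median-ratio scaling, 5 were higher and 1 lower, beside 36.4% and 36.5% of all genes. CLK1, a kinase of SR proteins, was at 26.72 and 28.21 TPM in sgNS and 50.44 and 50.01 TPM in METTL16 KO, and rose by 0.87 on the log2 scale (SE 0.051, adjusted p = 7.7e-08). Its relative CLK2 was at 52.8 and 52.85 TPM against 32.27 and 33.95 TPM, and fell by 0.67 (log2 scale, SE 0.050, adjusted p = 4.1e-07), so CLK2 stood above CLK1 in both sgNS libraries and below it in both METTL16 KO libraries. Of the SR-related proteins, 11 of 14 were higher and 2 lower (9 and 2 after median-ratio scaling), with SRRM2, a scaffold of nuclear speckles, at 0.56 and SCAF11 at -0.30 (log2 scale, adjusted p = 3.5e-07 and 0.00023).

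Of the minor spliceosome genes, 7 of 8 were higher and 0 lower (3 and 1 after median-ratio scaling), beside 50.1% and 25.6% of all genes, with SNRNP25 at 0.60 (log2 scale, adjusted p = 8.2e-07). For snRNP assembly, 9 of 15 were higher and 2 lower (5 and 5 after median-ratio scaling), with SNUPN, the import adaptor of snRNPs, at 0.64 and GEMIN8, an SMN complex subunit, at -0.41 (log2 scale, adjusted p = 1.2e-06 and 0.013). Of other splicing regulators, 7 of 15 were higher and 1 lower, and 4 and 6 after median-ratio scaling. MBNL3, a muscleblind protein, was at 46.44 and 49.32 TPM against 107.91 and 103.66 TPM and rose by 1.14 (log2 scale, adjusted p = 4.5e-09), and NOVA1, known from neurons, was at 7.52 TPM in both sgNS libraries against 4.73 and 4.53 TPM and fell by 0.69 (log2 scale, adjusted p = 5.8e-05).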
